A study of Mus musculus with 14 samples.

Results

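Experiment A of this series followed SCp2 cells, an established line of mouse mammary epithelial cells, over 3 plating densities. The 6 arrays whose labels name experiment A, of 14 arrays in the series, are described here. Dishes of 35 mm received 50K, 100K or 250K cells (K for kilo) in DMEM with 2% FCS and were kept for 3 days as controls or with MMP-3 (labelled MMP3), stromelysin 1, a protease that degrades the matrix around cells and cleaves adhesion proteins such as E-cadherin. Each combination of agent and density in experiment A is 1 Affymetrix mouse expression array, so no group within A has a replicate, and all dishes share the cell line, the medium and the 3 days of culture. The other 8 arrays, experiment B, repeat the design with 25K added. The labels give no dose of MMP-3, no cell count at harvest and no relation between the dishes of an experiment.

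Crowding is known to act on epithelial cells through several routes. Cells in contact stop entering S phase, the phase in which the MCM helicase and its partners copy DNA, and the E2F factors that drive these genes are then held in check by retinoblastoma family proteins. The co-activators YAP and TAZ, which work through TEAD factors on genes such as Ccn1 and Ccn2, are kept out of the nucleus when cells are crowded and rounded, while spread cells on a stiff substrate build actin bundles and switch on SRF-dependent genes. FoxO factors are active when growth factor signals are low. MMP-3 itself is known to make SCp2 cells spread and take on mesenchymal features.

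Values are relative log2 expression: each probe set was centred on its median over the 14 arrays, so a value of 1 means 2-fold above that median and says nothing about the absolute level of a gene. The response to density was measured as a slope, the log2 difference per doubling of the cells plated, fitted with limma to the 6 arrays with the agent as a block. From 50K to 250K there are 2.32 doublings. Slopes use the most variable probe set of a gene. For a gene at unadjusted p under 0.05 whose slope moves by over 1.5 times, a value marked averaged is the slope with all its probe sets averaged, and one marked without control 250K the slope without that array. Values below are listed in the order 50K, 100K, 250K, and each array measures the RNA of a whole dish, so fewer cells of a type and less RNA per cell cannot be told apart.

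The control array at 250K stood apart from the others, with an SD over genes of 0.586 against 0.369 to 0.430 on the other arrays of A, and it correlated across genes at r = 0.127 with control 50K and 0.406 with control 100K, where those 2 arrays correlated at 0.784. The MMP3 array at 250K correlated at 0.502 and 0.483 with the MMP3 arrays at 50K and 100K. List counts that move by over 1.5 times without control 250K are therefore also given without it. In the actin control probe sets the 3′ end minus the 5′ end, a measure of RNA integrity, was 0.11 (control) and 0.09 (MMP3) at 250K and lay between -0.14 and 0.03 at the lower densities, and the mean of the spiked-in controls ran from -0.13 to -0.05 to 0.09 in control and from -0.14 to 0.00 to 0.03 in MMP3. The same measure in the Gapdh control probe sets was 0.03, -0.00 and -0.03 in control and 0.12, 0.04 and 0.17 in MMP3, and did not follow the actin one. The part of these measures in the results was not tested. Of 11 mammary epithelial markers 6 varied enough to be tested, and 0 of these had an unadjusted p under 0.05 for the slope. The summed relative value of all 11 was -0.74, -1.49 and -1.53 in control and 2.74, 1.47 and 1.48 in MMP3. Cldn4 alone was -1.05, -1.42 and -1.06 in control and 1.91, 1.20 and 0.84 in MMP3. Krt8, Krt18, Krt7, Krt19 and Cldn3 stayed within 0.05 of 0 on all 6 arrays, as did the 8 endothelial markers, and centred values do not tell whether such genes were expressed.

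Of 11812 genes tested, 0 (0%) passed an adjusted p of 0.05 for the slope (limma, Benjamini-Hochberg; smallest adjusted p = 0.115), while 2900 had an unadjusted p under 0.05. Of these 1574 were higher with density (13.3% of genes tested) and 1326 lower (11.2%). The counts were 766 and 628 without control 50K, and 1049 and 832 without control 250K. Slopes ran from -1.76 for Serpinb2 to 1.26 for Krt15 with a median of -0.01, and their quartiles were -0.10 and 0.11. No gene below is therefore called changed. Counts of genes at unadjusted p under 0.05 in this fit are read only against the shares of 13.3% and 11.2%. Each p-value reflects how far the 6 dishes scatter around the fitted lines. A list count from another fit is read against that fit's own counts over all genes (limma). Those were 480 higher and 384 lower on 12 arrays of A and B with the experiment as a replicate block. With the spread of all 14 arrays they were 585 and 434, and without MMP3 250K 1375 and 1384. Without both 250K arrays they were 421 and 448, and without both 50K arrays 876 and 608.

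The 2 agents can be set side by side because they share no array. Between 50K and 250K the control dishes differed by at least 2-fold in 804 genes upwards (6.81%) and 609 downwards (5.16%), and the MMP3 dishes in 193 upwards (1.63%) and 181 downwards (1.53%). The median size of the difference was 0.31 in control and 0.19 in MMP3 on the log2 scale. Across genes the differences had the same sign in 8026 of 11812 (67.9%), with r = 0.497, a description in which genes are not independent replicates. In both agents 173 genes were at least 2-fold apart, 169 of them in the same direction: 111 higher at 250K (0.94%) and 58 lower (0.491%). A strict order over the 3 densities in both agents was seen in 1015 genes upwards (8.59%) and 1102 downwards (9.33%).

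**Figure D1:**
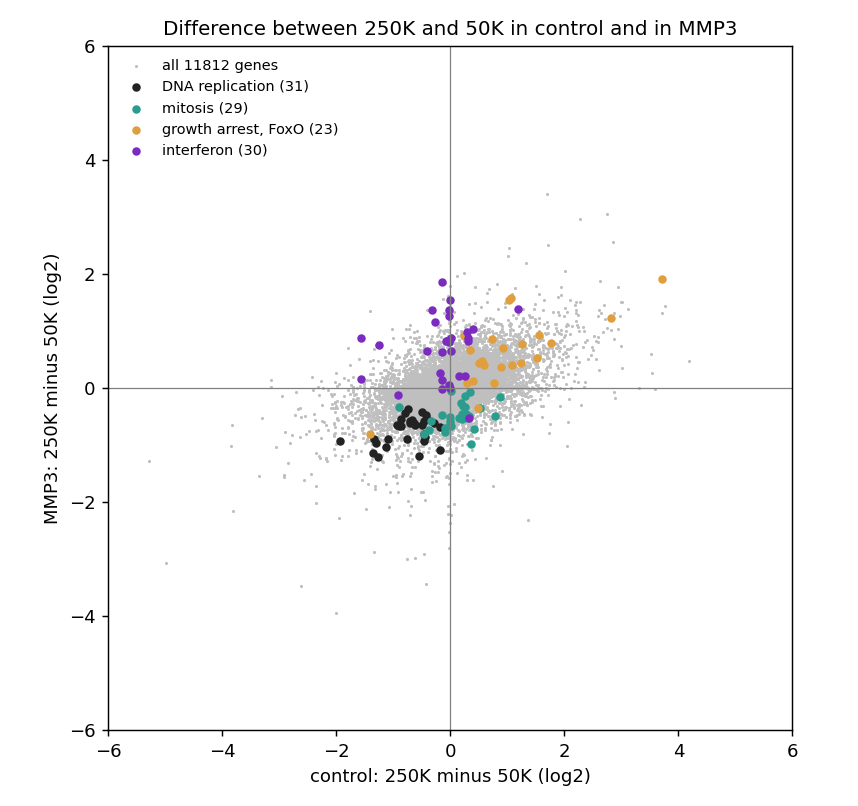
Each point is a gene, with the log2 difference between 250K and 50K in control dishes on the horizontal axis and in MMP3 dishes on the vertical axis (1 array against 1 on each). The 31 DNA replication genes lie at the lower left, below 0 in both agents, while the 29 mitosis genes are all below 0 in MMP3 and mostly above 0 in control.

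DNA replication and nucleotide synthesis genes were lower at 250K in both agents. All 31 tested members of this list had a negative slope, 27 with an unadjusted p under 0.05 against 11.2% of all genes, and all 31 had their lowest value at 250K in both control and MMP3. The median slope was -0.29 and the median difference between 250K and 50K was -0.70 in control and -0.66 in MMP3, against -0.02 and -0.00 over all genes. The list's median value was 0.56, 0.49 and -0.10 in control and 0.02, 0.06 and -0.64 in MMP3, so the gap lay between 100K and 250K. Without control 250K, 13 members had an unadjusted p under 0.05, and without MMP3 250K also 13. On 12 arrays of A and B with the experiment as a replicate block 24 had one, and for the slope of A with the spread of all 14 arrays 12.

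Mcm3, a subunit of the MCM helicase that unwinds DNA at replication forks, was 0.74, 0.38 and -0.52 in control and 0.61, 0.33 and -0.61 in MMP3. It was ordered by density in both agents and nearly the same in control and MMP3, with a slope of -0.54 (SE 0.06, -0.33 averaged) and adjusted p = 0.115 (limma). Orc1, a subunit of the complex that marks replication origins, was 0.94, 0.63 and -1.0 in control and 0.20, 0.39 and -0.73 in MMP3 and had the steepest slope of the list, -0.64 (SE 0.17, -0.41 without control 250K). Mcm5, another helicase subunit, was 0.74, 0.65 and -0.61 in control and 0.14, 0.06 and -1.0 in MMP3, with a slope of -0.55 (SE 0.11). Cdc6, which loads the helicase onto origins, was 0.42, 0.14 and -0.88 in control and 0.14, 0.26 and -0.83 in MMP3, with a slope of -0.51 (SE 0.11). For all 4 genes the highest of the 250K values lay below the lowest of the values at 50K and 100K. The other members ran from -0.49 for Fen1, the nuclease that trims Okazaki fragments, to -0.20 for Tk1, thymidine kinase, and included the sliding clamp Pcna (-0.27), the ribonucleotide reductase subunits Rrm2 (-0.39) and Rrm1 (-0.29) and thymidylate synthase Tyms (-0.31, -0.20 without control 250K).

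The promoters of Orc1, Mcm5 and Cdc6 hold a match to the letters of the E2F site. They are shown because E2F factors are the known drivers of these genes at the entry into S phase. Each is the 250 bases before the gene's start in RefSeq (GRCm38.p6), with the match in capitals. Orc1 is chr4:108579204-108579453 on the plus strand, Mcm5 is chr8:75109259-75109508 on the plus strand and Cdc6 is chr11:98907901-98908150 on the plus strand.
Orc1: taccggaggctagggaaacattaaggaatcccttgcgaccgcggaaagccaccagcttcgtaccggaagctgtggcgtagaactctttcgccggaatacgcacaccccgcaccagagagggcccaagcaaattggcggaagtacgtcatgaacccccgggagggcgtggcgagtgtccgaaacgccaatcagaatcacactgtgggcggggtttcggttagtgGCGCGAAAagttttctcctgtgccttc
Mcm5: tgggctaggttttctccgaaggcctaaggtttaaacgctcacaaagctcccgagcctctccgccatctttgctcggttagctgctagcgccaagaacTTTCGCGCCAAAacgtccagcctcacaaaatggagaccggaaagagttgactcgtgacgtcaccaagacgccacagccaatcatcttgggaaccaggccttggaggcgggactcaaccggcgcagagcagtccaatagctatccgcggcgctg
Cdc6: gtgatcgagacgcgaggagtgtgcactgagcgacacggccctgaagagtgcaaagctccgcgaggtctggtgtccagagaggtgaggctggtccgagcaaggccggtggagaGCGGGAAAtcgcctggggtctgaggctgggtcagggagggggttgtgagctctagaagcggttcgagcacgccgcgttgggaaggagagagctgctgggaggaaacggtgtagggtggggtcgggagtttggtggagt
The letters searched were TTTCCCGC, TTTCGCGC, TTTGCCGC and TTTGGCGC on both strands. The match of Orc1 begins 27 bases before the start and that of Cdc6 138 bases before, and Mcm5 has 2 overlapping matches, at 153 and 149. In Mcm3 the window holds none of these letters. Of the 27 tested replication genes with a RefSeq promoter 8 had a match (29.6%), of 19 genes of the G1 list 6 (31.6%), and of the 9561 tested genes with a promoter 389 (4.07%). A match is a description of the sequence and no measurement of binding.

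Genes that drive the entry into S phase were in part lower with density too. Of 24 tested genes for G1 cyclins, E2F factors and CDK inhibitors, 11 had an unadjusted p under 0.05 and a lower value with density, and 3 a higher one, with a median slope of -0.15. Ccne2, a cyclin E that activates Cdk2, was 0.74, 0.42 and -0.70 in control and 0.01, 0.04 and -0.91 in MMP3, with a slope of -0.52 (SE 0.11). E2f7, an E2F repressor, was 0.86, 0.62 and -0.17 in control and 0.04, -0.00 and -0.89 in MMP3, with a slope of -0.43 (SE 0.07). In control both genes were lower at each higher density, while in MMP3 the difference lay between 100K and 250K. Ccne1 (-0.42, -0.24 without control 250K), the phosphatase Cdc25a (-0.42, -0.25 averaged), the kinases Cdk6 (-0.39, -0.26 averaged) and Cdk2 (-0.21, -0.11 averaged), E2f1 (-0.38, -0.23 averaged) and E2f8 (-0.35) had slopes of the same sign. Another probe set of Cdc25a had the opposite sign. The 3 with higher values at density were the retinoblastoma relative Rbl2 (0.33, 0.21 averaged, 0.22 without control 250K) and the CDK inhibitors Cdkn1b (0.28), which encodes p27, and Cdkn2b (0.27), which encodes p15. Cdkn1b was 0.30, 0.64 and 1.16 in control and -0.52, -0.15 and -0.07 in MMP3, ordered in both agents. Cdkn2b was -1.34, -1.18 and -0.68 in control and 0.07, 0.09 and 0.64 in MMP3, with all 3 controls below all 3 MMP3 dishes. Ccnd1, which encodes cyclin D1, was 0.19, 0.20 and -0.43 in control and -0.01, 0.01 and -0.19 in MMP3, lowest at 250K in both agents, with a slope of -0.18 (SE 0.07) and adjusted p = 0.222 (limma). Without control 50K the list had 7 members lower at unadjusted p under 0.05, and with the replicate block 6.

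Mitosis genes did not follow the replication genes in control dishes. Of 29 tested genes of the spindle, kinetochore and mitotic kinases 19 were higher at 250K than at 50K in control, while all 29 were lower in MMP3. The median difference was 0.20 in control and -0.51 in MMP3, and 1 of 29 had an unadjusted p under 0.05 for the common slope. Mki67, the proliferation marker, was 0.44, 0.42 and 0.66 in control and -0.17, -0.02 and -0.49 in MMP3. Its highest control value and its lowest MMP3 value were both at 250K, and the common slope was -0.02 (SE 0.08). Cenpf, a kinetochore protein, was 0.49, 0.60 and 1.27 in control and -0.31, -0.30 and -0.81 in MMP3. Ttk, the checkpoint kinase, was 0.33, 0.53 and 0.68 in control and -0.26, -0.35 and -1.24 in MMP3, with the same opposition. Tpx2, a spindle assembly factor, was 0.39, 0.40 and -0.07 in control and 0.38, 0.17 and -0.43 in MMP3, lower at 250K in both agents, with a slope of -0.28 (SE 0.06, -0.12 averaged), the 1 member at unadjusted p under 0.05; another of its probe sets had the opposite sign. For 6 of 29 the difference of the slope between agents had an unadjusted p under 0.05, against 11.9% of all genes. Without control 250K, 4 members were lower at unadjusted p under 0.05 and the median slope was -0.18.

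**Figure D2:**
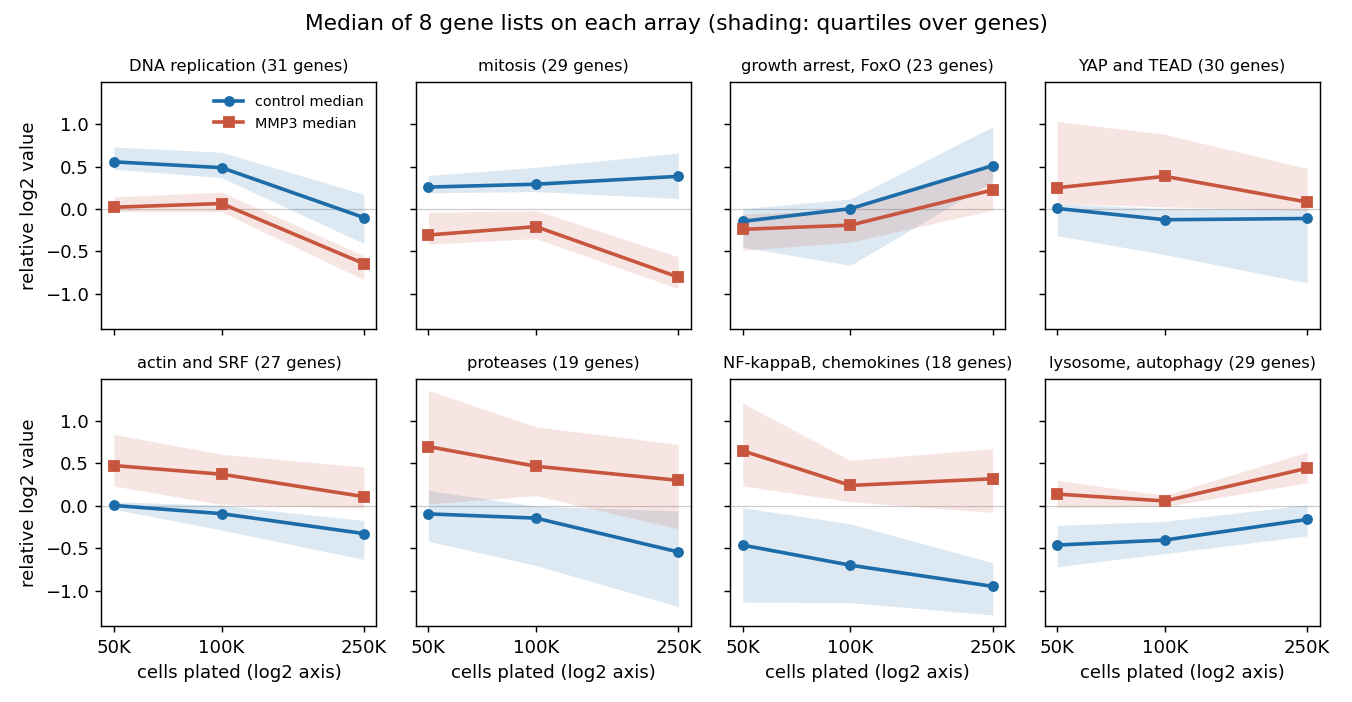
Median relative log2 value of the tested members of 8 gene lists on each array of experiment A, against the cells plated (log2 axis), with control in blue circles, MMP3 in red squares and the quartiles over genes shaded. The replication medians differ mainly between 100K and 250K in both agents, whereas the mitosis medians part at 250K (0.38 in control, -0.80 in MMP3).

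FoxO targets and growth arrest genes were higher at 250K in both agents. Of 23 tested members 22 had a positive slope, 14 with an unadjusted p under 0.05 against 13.3% of all genes, and 1, Cited2, was lower. The median slope was 0.33, and the median difference was 0.89 in control and 0.52 in MMP3. Pik3ip1, an inhibitor of PI3 kinase, was -2.37, -0.92 and 1.35 in control and -0.11, -0.06 and 1.81 in MMP3. That is a 13.2-fold difference between 250K and 50K in control and a 3.77-fold one in MMP3, with a slope of 1.23 (SE 0.23) and adjusted p = 0.123 (limma). In control it differed at each step, in MMP3 between 100K and 250K. Fbxo32, a ubiquitin ligase subunit and FoxO target, was -0.34, -0.01 and 0.73 in control and -0.10, -0.18 and 1.48 in MMP3, with a slope of 0.59 (SE 0.15). Ypel3, a growth-suppressing gene, was -1.33, -1.32 and 0.44 in control and -0.24, -0.01 and 0.55 in MMP3, with a slope of 0.57 (SE 0.17, 0.29 without control 250K). Gas1, named for growth arrest, was 0.25, 0.55 and 1.28 in control and -2.39, -2.28 and -0.85 in MMP3, with a slope of 0.57 (SE 0.12, 0.35 averaged). Its MMP3 values all lay below its control values, and 250K was highest in both agents. Sesn1, a stress-induced inhibitor of mTORC1 signalling, was 0.00, 0.22 and 1.56 in control and -0.93, -0.71 and -0.00 in MMP3, and the anti-proliferative gene Btg2 was -0.02, 0.02 and 1.24 in control and -0.37, -0.33 and 0.40 in MMP3. Both differed mainly between 100K and 250K in each agent. Foxo3 itself had a slope of 0.35 (0.21 averaged), Foxo4 of 0.11 (0.05 averaged, 0.07 without control 250K), and the insulin receptor gene Insr of 0.36 (0.12 averaged), while Foxo1 at 0.04 (SE 0.12) was not ordered. Txnip, which encodes a thioredoxin-binding protein that limits glucose uptake, was -1.42, -2.17 and 1.40 in control and 0.07, -0.02 and 1.29 in MMP3. It was lowest at 100K in both agents, and its slope of 0.92 (SE 0.39) had an adjusted p of 0.243 (limma), and without both 250K arrays it was -0.42. Cited2, a transcriptional co-regulator, was -0.11, -0.71 and -1.51 in control and 1.11, 0.97 and 0.30 in MMP3, ordered downwards, with a slope of -0.48 (SE 0.07). Without control 50K the list had 9 members higher at unadjusted p under 0.05, and without control 250K 11. On 12 arrays of A and B with the replicate block it had 6, and with the spread of 14 arrays also 6.

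Ddit4 and Arrdc3 followed density most regularly. They had the smallest p-values among the 15 genes chosen by p with a positive slope, all 15 ordered by density in both agents and all at adjusted p = 0.115 (limma). A choice by p favours genes on a straight line, so their order is a description. Ddit4, an inhibitor of mTORC1, was -0.06, 0.69 and 1.49 in control and -1.34, -0.81 and 0.32 in MMP3, with a slope of 0.69 (SE 0.04), 2.93-fold in control and 3.15-fold in MMP3 between 250K and 50K. The MMP3 value lay below the control value at each density. Arrdc3, an arrestin family gene, was 0.91, 1.32 and 2.16 in control and -1.46, -1.05 and -0.30 in MMP3, with a slope of 0.52 (SE 0.04). Others among the 15 were Arhgef4 (0.76, SE 0.06, 0.38 averaged), the phosphatidate phosphatase gene Lpin1 (0.58, SE 0.05), the phospholipid transfer protein Pltp (0.46, SE 0.04), Tcim (0.65, SE 0.06), Cables1 (0.46, SE 0.04), Vps13b (0.52, SE 0.04, 0.27 averaged), Gdap10 (0.50, SE 0.05), Narf (0.40, SE 0.03, 0.19 averaged), Ints6l (0.37, SE 0.03, 0.24 averaged), Map3k4 (0.35, SE 0.03), Fam120aos (0.34, SE 0.03), the complex I assembly factor Ndufaf3 (0.32, SE 0.03) and Wdr38 (0.26, SE 0.02, 0.13 averaged). Of the 15 slopes, 14 had the same sign in experiment B, against 67.4% over all genes tested. That share over all genes was 49.1% without the MMP3 50K array of B.

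The 15 genes with the smallest p and a negative slope were again all ordered and at adjusted p = 0.115 (limma). Thbs1, thrombospondin 1, was -0.35, -1.57 and -2.70 in control and 2.46, 1.88 and 0.44 in MMP3, with a slope of -0.94 (SE 0.07). The 50K dish was 5.1-fold above the 250K dish in control and 4.03-fold in MMP3. Tnnt2, cardiac troponin T, was 0.17, -0.34 and -1.38 in control and 1.44, 0.96 and -0.17 in MMP3, with a slope of -0.69 (SE 0.05, -0.45 averaged). For both genes the MMP3 value was the higher one at each density. Gpc3, a glypican of the cell surface, was 0.21, -0.09 and -1.12 in control and 1.97, 1.22 and 0.21 in MMP3, a slope of -0.67 (SE 0.07). Epha2, an ephrin receptor, was 0.01, -0.41 and -0.93 in control and 1.19, 0.85 and -0.01 in MMP3, a slope of -0.46 (SE 0.05). Both were lower at each higher density and higher in MMP3 than in control at matched density. The others were Lgr6, an R-spondin receptor (-0.61, SE 0.06, -0.31 averaged), the protease inhibitor Timp3 (-0.42, SE 0.04, -0.25 averaged), the SMAD repressor Skil (-0.46, SE 0.04), the palmitoyltransferase gene Zdhhc5 (-0.45, SE 0.04), Samhd1, which breaks down deoxynucleotides (-0.42, SE 0.03, -0.17 averaged), Iffo2 (-0.38, SE 0.04), Lcmt2 (-0.34, SE 0.03), the cyclin F gene Ccnf (-0.28, SE 0.03), Wdr36 (-0.27, SE 0.03), the collagen IV gene Col4a1 (-0.24, SE 0.02, -0.15 averaged) and Id2. Another probe set of Samhd1 had the opposite sign. In experiment B 13 of the 15 had the same sign, all but Timp3 (0.05 in B) and Lcmt2 (0.03 in B), against 67.4% over all genes tested.

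**Figure D3:**
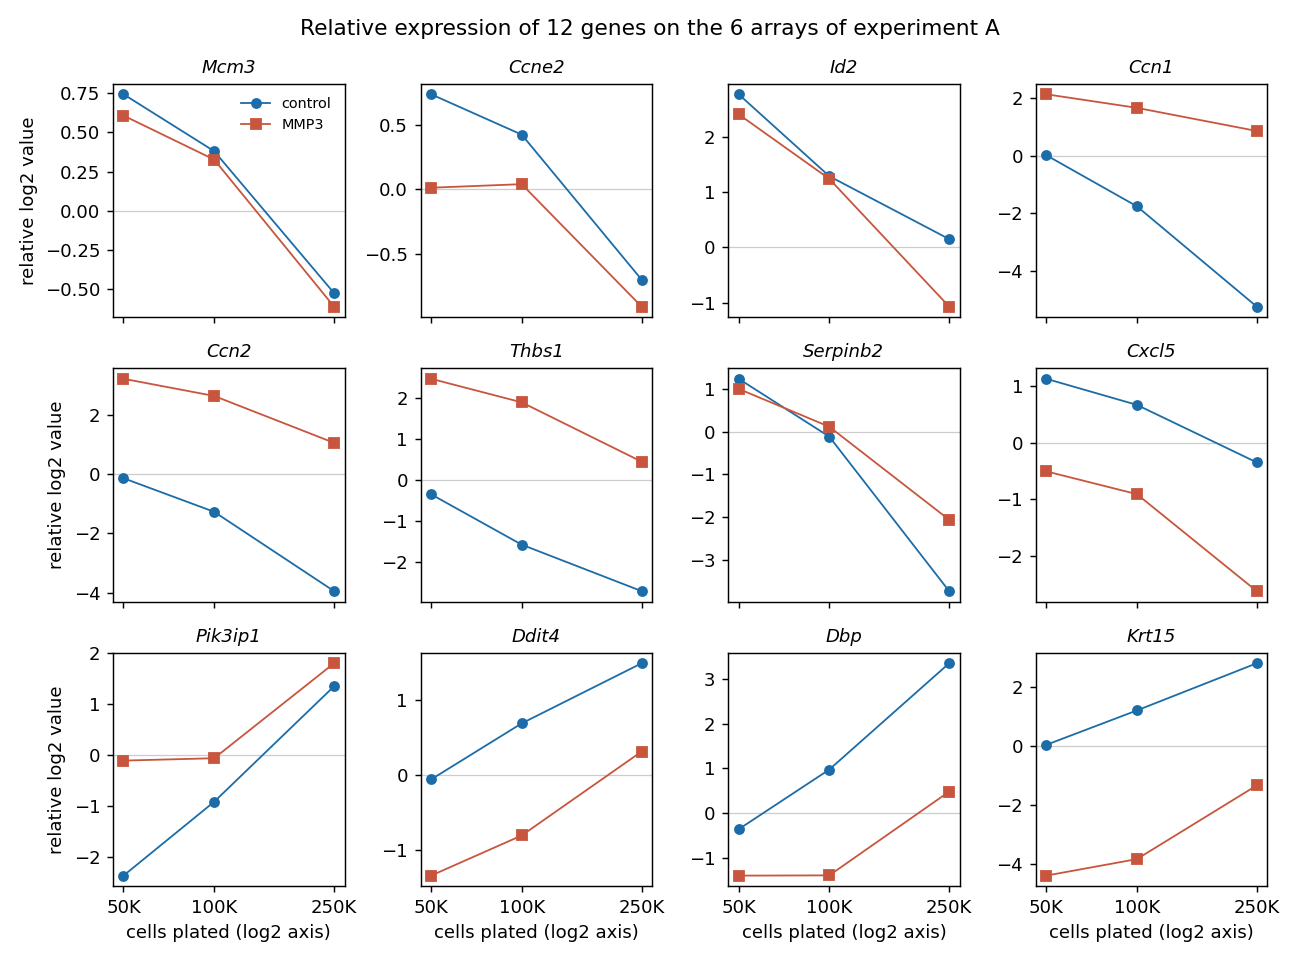
Relative log2 value of 12 genes on the 6 arrays of experiment A against the cells plated (log2 axis), 1 point per array, with control in blue circles and MMP3 in red squares; each panel has its own vertical scale. Mcm3 and Serpinb2 run close together in both agents at 50K and 100K, Ccn1, Ccn2 and Thbs1 are higher in MMP3 than in control at every density, and Ddit4, Dbp and Krt15 are higher in control.

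Of the ID genes, direct targets of BMP and SMAD signalling that block basic helix-loop-helix factors, Id1, Id2 and Id3 had steep negative slopes. Id4 did not, with a slope of -0.02. Id2 was 2.77, 1.29 and 0.15 in control and 2.41, 1.24 and -1.07 in MMP3, with a slope of -1.31 (SE 0.13, -0.81 averaged). The 50K value was 6.13-fold the 250K value in control and 11.1-fold in MMP3, and a first step of more than 1 log2 unit lay between 50K and 100K in both agents. Id1 was 1.16, 0.24 and -1.28 in control and 1.27, 0.89 and -0.24 in MMP3, with a slope of -0.86 (SE 0.11). Id3 was 1.27, 0.08 and -0.51 in control and 1.26, 1.12 and 0.45 in MMP3, with a slope of -0.55 (SE 0.13). In control both were already lower at 100K, in MMP3 mainly at 250K. Of the 25 tested genes of the TGF-beta and BMP pathways 8 were lower and 3 higher at unadjusted p under 0.05, with a median slope of -0.11. With the replicate block 2 were lower, with the spread of 14 arrays 1, and without control 250K 9 lower and 2 higher. The inhibitory SMAD gene Smad7 was 0.47, 0.15 and -0.47 in control and 1.26, 1.01 and 0.00 in MMP3 (-0.48, SE 0.07), and the latent TGF-beta binding protein gene Ltbp1 had a slope of -0.27 (-0.10 averaged), the activin subunit Inhba of -0.18 (-0.09 averaged) and the activin antagonist Fst of -0.25 (-0.14 without control 250K). The 3 higher ones were Smad4 (0.14, 0.09 averaged, 0.09 without control 250K), Inhbb (0.26, 0.16 averaged) and Ski (0.25, 0.09 averaged), the last with another probe set of opposite sign. Receptors were not among them, with Tgfbr1 at -0.07, Tgfbr2 at -0.11 and Bmpr1a at -0.09.

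Some well-known YAP and TEAD targets were lower with density, but most of the list was not at unadjusted p under 0.05. Ccn1, a matricellular protein gene, was 0.02, -1.76 and -5.25 in control and 2.15, 1.67 and 0.87 in MMP3. Ccn2, also known as connective tissue growth factor, was -0.14, -1.27 and -3.95 in control and 3.22, 2.64 and 1.06 in MMP3. Both were ordered by density in both agents, with MMP3 above control at every density, and the widest gap between agents was at 250K. The 50K value of Ccn1 was 38.7-fold the 250K value in control and 2.43-fold in MMP3, and that of Ccn2 14-fold and 4.47-fold. The slope was -1.42 (SE 0.43, -0.74 without control 250K) for Ccn1 and -1.30 (SE 0.20) for Ccn2, with adjusted p = 0.16 and 0.12 (limma). Amotl2, which encodes an angiomotin that binds YAP and is itself a target, was -0.45, -1.46 and -2.45 in control and 1.61, 1.02 and 0.64 in MMP3, with a slope of -0.63 (SE 0.12). Dock5, an exchange factor for Rac, was -0.48, -0.60 and -2.52 in control and 1.62, 1.69 and 0.56 in MMP3, with a slope of -0.69 (SE 0.19, -0.24 averaged, -0.42 without control 250K). Ankrd1, another well-known target, was 0.00, -0.01 and -0.03 in control and 2.91, 2.37 and 0.70 in MMP3, level in control and lower with density in MMP3. The whole list is mixed: of 30 tested members 7 were lower at unadjusted p under 0.05, 0 higher, with a median slope of -0.10. Besides Ccn1, Ccn2, Amotl2 and Dock5 these were Tead4 (-0.36, -0.20 without control 250K), Ajuba (-0.29, -0.15 without control 250K) and the tissue factor gene F3 (-0.24). The co-activator genes themselves gave -0.31 (SE 0.16) for Yap1, with opposite signs among its probe sets, and 0.21 (SE 0.09) for Wwtr1, which encodes TAZ. Without control 50K, 2 members had an unadjusted p under 0.05, and without control 250K 4. With the replicate block 0 did, and with the spread of 14 arrays 0 (limma).

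The promoters of Ccn1 and Amotl2, are shown because their windows in RefSeq (GRCm38.p6) hold the letters GGAATG of the TEAD site, with the match in capitals (CATTCC on the strand printed). Ccn1 is chr3:145649986-145650235 on the minus strand and Amotl2 is chr9:102717554-102717803 on the plus strand, each the 250 bases before the start and written in the direction of the gene.
Ccn1: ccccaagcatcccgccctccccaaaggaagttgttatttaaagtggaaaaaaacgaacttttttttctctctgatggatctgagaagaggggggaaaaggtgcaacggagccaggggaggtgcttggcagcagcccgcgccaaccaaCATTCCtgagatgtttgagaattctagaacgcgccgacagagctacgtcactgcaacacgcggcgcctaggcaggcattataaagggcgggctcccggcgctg
Amotl2: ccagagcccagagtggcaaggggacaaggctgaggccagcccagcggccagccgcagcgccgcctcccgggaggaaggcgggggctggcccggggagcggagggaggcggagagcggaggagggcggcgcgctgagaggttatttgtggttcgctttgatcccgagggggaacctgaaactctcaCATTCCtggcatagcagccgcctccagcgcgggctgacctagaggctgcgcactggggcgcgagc
The search covered both strands. The match begins 103 bases before the start of Ccn1 and 65 before that of Amotl2. Of 23 tested list members with a promoter 10 had the letters (43.5%), against 12.7% of the tested genes. The list was written to hold known targets, and a match says nothing of binding in these cells. Ccn2 and Dock5 had no window among those searched. The FoxO letters GTAAACA were searched in the same way, and the windows of Pik3ip1, Ypel3 and Gas1 did not hold them. Of 20 tested growth arrest genes with a promoter 3 had these letters (15%), against 2.73% of the tested genes.

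Actin cytoskeleton and SRF-dependent genes were lower with density by small amounts. Of 27 tested members 25 had a negative slope, 14 of them at unadjusted p under 0.05 and 0 higher, with a median slope of -0.17. Fhl2, an SRF target and adaptor, was 0.06, -0.06 and -1.22 in control and 0.65, 0.51 and -0.31 in MMP3, with a slope of -0.50 (SE 0.10). Flna, filamin A, was 0.03, 0.00 and -0.58 in control and 0.68, 0.27 and -0.03 in MMP3. Tpm1, a tropomyosin, was -0.04, -0.34 and -1.08 in control and 0.95, 0.80 and 0.63 in MMP3. In control these genes differed mainly between 100K and 250K. Cnn2, a calponin, had a slope of -0.25 (SE 0.05), Tpm4 of -0.19 (SE 0.03), the myosin heavy chain Myh9 of -0.19 (SE 0.04, -0.12 averaged) and Srf of -0.19 (SE 0.06, -0.09 averaged, -0.09 without control 250K). The beta and gamma actin genes Actb (-0.09, -0.04 averaged, -0.06 without control 250K) and Actg1 (-0.09) and smooth muscle actin Acta2 (-0.11, -0.04 averaged) had slopes of about -0.10. Egr1, an immediate early gene in this list, was 1.39, 1.05 and 3.22 in control and -0.28, -0.19 and 0.33 in MMP3, highest at 250K in both agents. Without control 250K or control 50K, 8 members were lower at unadjusted p under 0.05, without both 250K or both 50K arrays 3, with the replicate block 1 and with the spread of 14 arrays 2.

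Several genes of the plasminogen system and of matrix proteases were lower with density in A. Of 19 tested members 9 were lower at unadjusted p under 0.05 and 1, Plat, higher, and without control 250K 10 were lower and 0 higher. The median slope was -0.18. Serpinb2, an inhibitor of plasminogen activators, had the steepest slope of all genes and was 1.24, -0.12 and -3.74 in control and 1.0, 0.12 and -2.07 in MMP3. That is -1.76 (SE 0.25) per doubling (adjusted p = 0.12, limma), with control and MMP3 close together at 50K and 100K. The urokinase receptor gene Plaur was -0.10, -0.24 and -2.25 in control and 1.38, 1.31 and 0.10 in MMP3 (-0.77, SE 0.18, -0.51 without control 250K). Plau, urokinase itself, was -0.48, -0.80 and -1.37 in control and 1.34, 1.11 and 0.71 in MMP3 (-0.33, SE 0.04). In both, all MMP3 values lay above all control values. Adam12, a metalloprotease, was -0.00, -0.06 and -1.41 in control and 2.81, 2.64 and 1.44 in MMP3 (-0.62, SE 0.12, -0.31 averaged). Adamts1, a secreted protease, was 0.22, -0.15 and -1.35 in control and 0.20, 0.31 and -0.90 in MMP3 (-0.59, SE 0.12). All were lowest at 250K in both agents. Among the inhibitors of metalloproteases Timp1 had a slope of -0.42, Timp3 of -0.42 and Timp2 of -0.29 (-0.08 averaged), the last with probe sets of opposite sign. Mmp14 (-0.17, SE 0.13) and Mmp2 (0.13, SE 0.19) were not ordered by density. With the replicate block 0 list members were lower at unadjusted p under 0.05 (limma) and with the spread of 14 arrays 1. In B the list's median slope was 0.01, with 10 of 19 positive.

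Several NF-kappaB genes and chemokines were lower at higher plating density. Of 18 tested members 9 were lower at unadjusted p under 0.05 and 0 higher, 8 of the 9 ordered by density in both agents, and the median slope was -0.24. Cxcl5, a neutrophil chemokine, was 1.14, 0.67 and -0.35 in control and -0.51, -0.91 and -2.63 in MMP3, with a slope of -0.79 (SE 0.12). Lif, an IL-6 family cytokine, was -0.50, -0.97 and -1.20 in control and 0.70, 0.20 and -0.60 in MMP3 (-0.43, SE 0.07, -0.22 averaged). Tnfaip3, the NF-kappaB inhibitor A20, was -0.39, -1.11 and -1.55 in control and 0.69, 0.16 and -0.04 in MMP3 (-0.40, SE 0.07, -0.20 averaged), and the chemokine gene Cxcl1 was -1.59, -2.01 and -2.50 in control and 0.55, 0.00 and -0.12 in MMP3 (-0.33, SE 0.06, -0.18 averaged), with another probe set of opposite sign. A first step was already present between 50K and 100K: the list's median was -0.46, -0.70 and -0.95 in control and 0.65, 0.24 and 0.32 in MMP3. Without both 250K arrays 7 members were still at unadjusted p under 0.05, where the replication list had 2. Without both 50K arrays 3 members were, where the replication list had 25. With the replicate block 0 members were, and with the spread of 14 arrays 0 (limma). Nfkbia (-0.22, -0.15 averaged), which encodes the inhibitor IkB-alpha, Ptgs2 (-0.32), which encodes cyclooxygenase 2 and was not ordered, Nfkb2 (-0.27), Csf1 (-0.38, -0.25 averaged, -0.57 without control 250K) and Cxcl16 (-0.25) completed the 9. Of 5 tested macrophage markers 0 had an unadjusted p under 0.05 (limma), and the summed relative value over all 12 was 0.28, 0.65 and 1.74 in control and -0.06, -0.19 and -0.27 in MMP3, where Cd68 alone was 1.84 at control 250K. Ptprc, Itgam and Tyrobp stayed within 0.05 of 0.

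**Figure D4:**
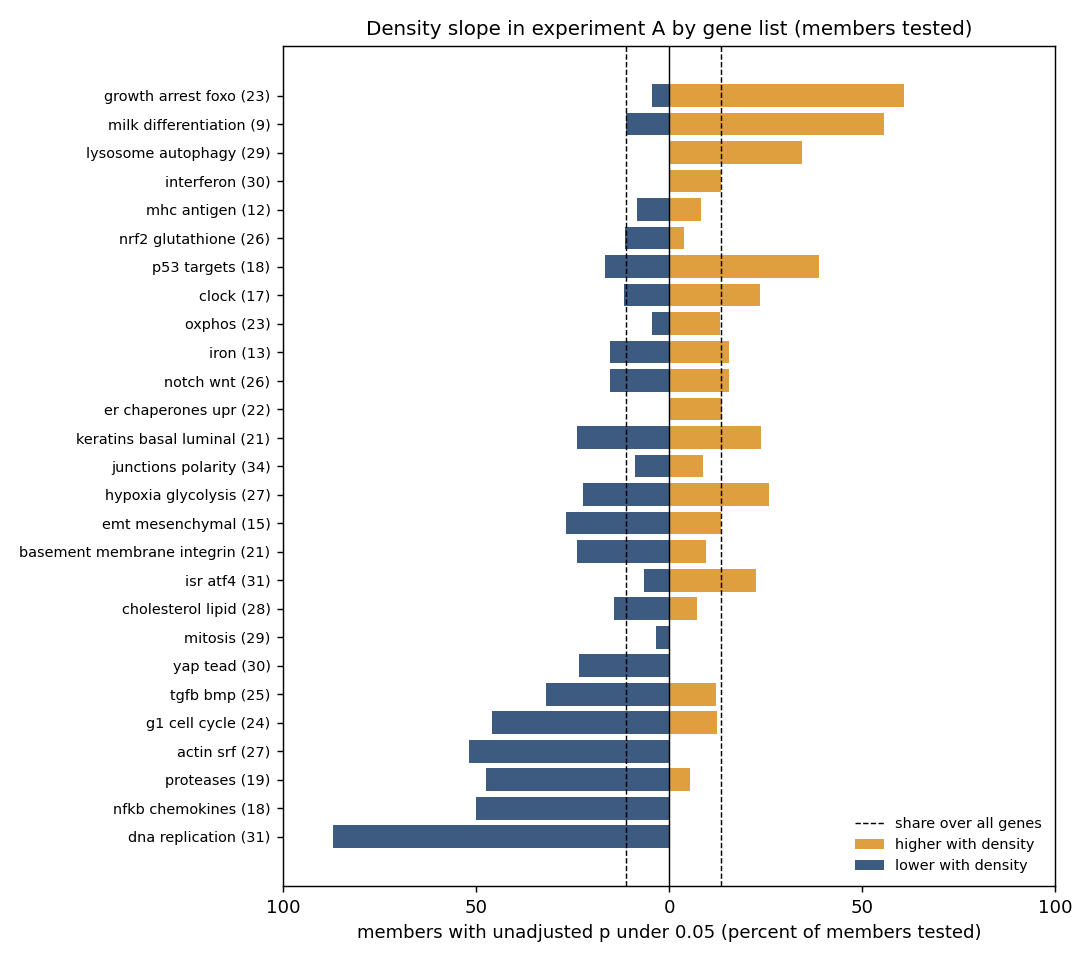
For each of 27 gene lists (members tested in brackets) the bars give the percent of members with an unadjusted p under 0.05 for the density slope in experiment A, higher with density to the right and lower to the left; dashed lines mark the shares over all 11812 genes (13.3% and 11.2%). DNA replication has 27 of 31 on the left, and growth arrest 14 of 23 on the right.

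Epithelial identity genes went both ways with density, also within a kind. Krt15, a keratin of basal and progenitor cells, had the largest positive slope of all genes and was 0.03, 1.20 and 2.79 in control and -4.38, -3.83 and -1.34 in MMP3, which is 1.26 (SE 0.13) per doubling. All control values lay above all MMP3 values, and within each agent the order followed density. Erbb3, a receptor of the EGF receptor family, was -0.52, -0.48 and 0.55 in control and -0.11, -0.08 and 0.67 in MMP3 (0.41, SE 0.10, 0.20 averaged). Trp63, the basal transcription factor p63, was 0.46, 0.58 and 1.19 in control and -0.97, -1.02 and -0.11 in MMP3 (0.35, SE 0.08, 0.11 averaged), with another probe set of opposite sign. Hbegf, an EGF receptor ligand, was 0.19, -1.92 and -2.17 in control and 2.22, 2.01 and 0.50 in MMP3 (-0.87, SE 0.21). Ereg, epiregulin, another such ligand, was -0.30, -0.89 and -2.32 in control and 1.58, 1.44 and 0.40 in MMP3 (-0.70, SE 0.12). The ligand gene Tgfa had a slope of the other sign (0.10, 0.03 averaged). In control Hbegf was lower at 100K already, in MMP3 at 250K. Sfn, stratifin (-0.50, SE 0.06), and the stress-associated keratins Krt6a (-0.33, SE 0.05) and Krt17 (-0.30, SE 0.04) were lower with density. Of the basal keratins besides Krt15, Krt14 at -0.10 (SE 0.14) was not ordered and Krt5 had a slope of -0.003. In all 5 of 21 tested members were higher and 5 lower at unadjusted p under 0.05, with a median slope of -0.00, and without control 250K 3 were higher. E-cadherin, Cdh1, was -0.45, -0.45 and -0.57 in control and 0.37, 0.47 and 0.38 in MMP3, level across density within each agent (slope -0.03 (SE 0.03)).

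Of 19 genes of mammary differentiation on the arrays 9 varied enough to be tested. At unadjusted p under 0.05, 5 of these 9 were higher with density, against 13.3% of all genes, and 1 was lower, against 11.2%. With the replicate block 1 was higher, with the spread of 14 arrays 2 and without both 250K arrays 0 (limma). Stat5a, the transcription factor that relays prolactin signals, was -0.84, 0.01 and 1.38 in control and 0.02, -0.16 and 1.12 in MMP3 (0.73, SE 0.16, 0.36 averaged). Xdh, which encodes xanthine dehydrogenase, a protein of milk fat droplets, was -0.22, -0.03 and 0.82 in control and -0.92, -0.90 and 0.22 in MMP3 (0.48, SE 0.10), and Wfdc18 was 0.32, 0.70 and 1.57 in control and -1.18, -1.09 and -0.37 in MMP3 (0.45, SE 0.07). Xdh and Stat5a were highest at 250K in both agents. Mfge8, lactadherin, had a slope of 0.23 (SE 0.04) and Btn1a1, butyrophilin, of 0.25 (SE 0.08, 0.07 averaged, 0.14 without control 250K), the latter with probe sets of opposite sign, while Plin2, a lipid droplet coat protein, had one of -0.22 (SE 0.03). The milk protein genes Wap and Glycam1 had slopes of -0.003 and -0.007, and Stat5b one of -0.03. Csn2, beta-casein, varied too little over the 14 arrays to be tested (SD 0.0145).

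Lysosomal and autophagy genes were higher with density. Of 29 tested members 26 had a positive slope, 10 at unadjusted p under 0.05 with 0 lower, and the median slope was 0.19. Neu1, lysosomal sialidase, was -2.26, -1.28 and -0.88 in control and 0.15, -0.03 and 0.72 in MMP3 (0.42, SE 0.13, 0.14 averaged), with another probe set of opposite sign. Grn, progranulin, was -0.77, -0.57 and 0.20 in control and -0.05, -0.07 and 0.64 in MMP3 (0.37, SE 0.07). Lamp2, a lysosomal membrane protein, was -0.72, -0.59 and -0.16 in control and -0.02, 0.02 and 0.41 in MMP3 (0.22, SE 0.04). MMP3 values lay above control values for all 3 at matched density, and 250K was highest in both agents. Sqstm1, the autophagy receptor p62, had a slope of 0.28 (SE 0.06) and Gabarapl1, an ATG8 protein, of 0.33 (SE 0.10, 0.18 without control 250K). The count was 3 without control 50K, 5 without control 250K, 5 without MMP3 250K, 5 with the replicate block and 4 with the spread of 14 arrays.

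Notch, Wnt and clock genes differed gene by gene. Notch3 was -2.19, -1.20 and 0.82 in control and -0.08, 0.02 and 1.43 in MMP3 (0.99, SE 0.19, 0.50 averaged) and Nrarp, a Notch target that feeds back on the pathway, -0.58, -0.04 and 0.31 in control and -0.76, -0.52 and 0.05 in MMP3 (0.36, SE 0.04, 0.22 averaged), both ordered upwards, while the ligand Jag1 was ordered downwards at 0.85, 0.16 and -0.20 in control and 1.19, 0.65 and -0.63 in MMP3 (-0.62, SE 0.10). Wnt5a, a secreted ligand, was 0.09, 0.51 and 1.47 in control and -1.99, -1.08 and -0.87 in MMP3 (0.53, SE 0.09, 0.23 averaged). Of 26 tested Notch and Wnt genes 4 were higher and 4 lower at unadjusted p under 0.05, near the shares of 13.3% and 11.2% over all genes. Dbp, a transcription factor driven by the circadian clock, was -0.35, 0.98 and 3.34 in control and -1.39, -1.38 and 0.48 in MMP3 (1.22, SE 0.23). Rora, a nuclear receptor of the clock, was -1.12, -0.45 and 1.51 in control and -0.61, 0.20 and 1.27 in MMP3 (0.98, SE 0.12, 0.52 averaged). In control these 2 differed at each step, and Dbp in MMP3 between 100K and 250K. Per1 (0.28) and Tef (0.35) made up the 4 of 17 clock genes that were higher, and 2 were lower.

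Stress and metabolic genes divided within their lists. Among 27 hypoxia-inducible and glycolytic genes 7 were higher and 6 lower at unadjusted p under 0.05, and 4 and 4 without control 250K. Aldoc, an aldolase, was -1.05, -0.49 and 0.99 in control and -0.20, 0.05 and 1.14 in MMP3 (0.74, SE 0.11, 0.41 averaged). Ndrg1, a stress-induced gene, was 0.42, 1.27 and 2.20 in control and -0.98, -1.12 and -0.28 in MMP3 (0.54, SE 0.13). Pfkfb3 (-0.22, SE 0.03, -0.11 averaged), a regulator of glycolysis, the glucose transporter Slc2a1 (-0.19, SE 0.06, -0.11 averaged) and lactate dehydrogenase Ldha (-0.19, SE 0.06) were lower, and Vegfa was level (0.04, SE 0.03). Of 18 p53 targets 7 were higher, with Trp53inp1 at -0.93, -0.51 and 1.32 in control and -0.15, -0.08 and 1.14 in MMP3 (0.78, SE 0.16, 0.39 averaged), and 3 lower, with Aen at -0.56 (-0.32 averaged) and Plk2 at -0.40 (-0.20 averaged). Without control 250K only 2 p53 targets were higher, and 3 lower. Of 31 ATF4 targets and amino acid genes 7 were higher and 2 lower, and 5 and 0 without control 250K (limma). Ddit3, which encodes CHOP, was -0.55, 0.10 and 1.49 in control and -1.42, -1.19 and -0.88 in MMP3 (0.56, SE 0.16, 0.30 without control 250K), with most of its difference in control, and Cebpb had a slope of 0.36 (SE 0.06). The iron import receptor Tfrc was 1.22, 0.87 and 0.24 in control and -0.23, 0.26 and -1.30 in MMP3 (-0.46, SE 0.16).

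Mesenchymal and basement membrane genes were in part lower with density. Of 15 tested mesenchymal markers and regulators 4 were lower at unadjusted p under 0.05: the matrix protein Tnc (0.01, -0.16 and -1.83 in control and 0.77, 0.62 and -0.01 in MMP3, slope -0.58, SE 0.16, -0.32 without control 250K), N-cadherin, Cdh2 (0.39, 0.00 and -1.14 in control and 0.71, 0.64 and -0.00 in MMP3, slope -0.49, SE 0.11, -0.33 without control 250K), the collagen crosslinking enzyme Lox (-0.37, SE 0.04) and vimentin, Vim. Vim was -0.05, -0.14 and -0.88 in control and 0.83, 1.13 and 0.39 in MMP3, with a slope of -0.29 (SE 0.10, -0.19 without control 250K), and it was highest at 100K in MMP3. Col6a1 (0.33, SE 0.07) and the repressor Snai2 (0.09, SE 0.03) were the 2 higher ones, and without control 250K 1 was higher. Of 21 basement membrane and integrin genes 5 were lower, led by the integrin gene Itgb6 (-0.31, SE 0.11), and 2 higher, Itga6 (0.31, SE 0.11, 0.15 without control 250K) and Lama5 (0.22, SE 0.06, 0.13 averaged), and without control 250K 7 were lower and 1 higher. Of 34 junction and polarity genes 3 were higher and 3 lower, below the share over all genes in each direction, and without control 250K 1 and 4. Among the fibroblast markers Pdgfra was -0.50, -0.24 and 2.15 in control and -0.99, -0.63 and 0.32 in MMP3 (0.87, SE 0.21, 0.33 averaged, 0.53 without control 250K), while Col1a1, Col1a2, Col3a1 and Thy1 stayed within 0.05 of 0 on all 6 arrays. The summed value of the 10 fibroblast markers was -0.34, -0.10 and 2.13 in control and -0.44, -0.64 and 0.19 in MMP3. Its part in the results was not tested.

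Lists near the background were those of oxidative phosphorylation (3 higher and 1 lower of 23, and 2 and 0 without control 250K), endoplasmic reticulum chaperones (3 and 0 of 22, and 0 and 0 without control 250K), NRF2 targets and glutathione (1 and 3 of 26) and MHC class I antigen presentation (1 and 1 of 12). Cholesterol and fatty acid synthesis genes had 2 higher and 4 lower of 28, and 2 and 1 without control 250K. Their median difference between 250K and 50K was -0.42 in control and 0.05 in MMP3. Fasn, fatty acid synthase, was 0.28, -0.09 and -0.63 in control and 0.19, 0.11 and -0.07 in MMP3. Idi1, an isomerase of the mevalonate pathway, was 0.42, 0.29 and -0.31 in control and 0.01, 0.07 and -0.34 in MMP3. Hmgcs1, the synthase at its start, was 0.95, 1.21 and 0.99 in control and -0.60, -0.20 and -0.08 in MMP3 and not ordered in control (slope 0.11 (SE 0.08)).

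Control and MMP3 dishes were then compared for the slope itself. With limma 0 genes (0%) passed an adjusted p of 0.05 for the difference of the slope between agents (smallest adjusted p = 0.405), and 1410 had an unadjusted p under 0.05 (11.9%). That count was 404 without control 250K and 864 without MMP3 250K. Cald1, which encodes the actin-binding protein caldesmon, had the smallest p and opposite directions: it was -1.54, -0.93 and -0.17 in control and 0.78, -0.09 and -1.53 in MMP3. The difference of the slopes, MMP3 minus control, was -1.59 (SE 0.07). Slc6a2, the noradrenaline transporter, was -0.41, 1.42 and 3.77 in control and -0.91, -0.85 and -0.44 in MMP3, with a difference of -1.59 (SE 0.08), and another of its probe sets had the opposite sign. Cbs, cystathionine beta-synthase, was 0.61, 1.67 and 2.96 in control and -0.22, -0.21 and -0.11 in MMP3 (-0.96, SE 0.05), Angptl6 -0.84, 0.61 and 2.70 in control and -1.02, -0.75 and -0.76 in MMP3 (-1.42, SE 0.08) and Stbd1, a glycogen-binding protein, -1.03, -0.09 and 1.03 in control and 0.08, -0.21 and -0.52 in MMP3 (-1.14, SE 0.05). In these 4 genes the control values spanned the wider range.

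Of the 10 genes with the widest gap between the control and the MMP3 difference, Ccn1, Slc6a2, Angptl6, Cald1, Egr2 and Epgn already differed between 50K and 100K in control. The gap of Cald1 came more from MMP3 (-2.31) than from control (1.37). For Rdh9, Egr2, Nkd2 and Epgn most of the gap lay on the control array at 250K. Rdh9, a retinol dehydrogenase, was 0.02, 0.03 and 3.61 in control and -0.04, -0.02 and -0.06 in MMP3, with 1 array of 6 away from 0. Egr2, an immediate early gene, was 0.19, 1.17 and 3.50 in control and -0.03, -0.00 and -0.04 in MMP3. Nkd2, an inhibitor of Wnt signalling, was 0.30, 0.06 and -2.85 in control and 0.41, 0.35 and 0.56 in MMP3. Epgn, an EGF receptor ligand, was -0.35, -1.03 and -4.17 in control and 1.16, 0.95 and 0.52 in MMP3. Without control 250K the common slope was -0.01 for Rdh9, 0.15 for Egr2, 0.02 for Nkd2 and -0.34 for Epgn.

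Interferon-induced genes were mostly higher at 250K than at 50K in MMP3 dishes and went both ways in control. The list's median was -1.32, -1.40 and -1.15 in control and 0.78, 1.68 and 1.65 in MMP3. In MMP3 the gap in the median thus lay between 50K and 100K. The median difference between 250K and 50K was -0.02 in control, where members ran from -1.57 to 1.18, and 0.81 in MMP3, and 26 of 30 tested members were higher at 250K in MMP3 against 10 of 30 in control. Ifit1 was -2.91, -2.98 and -2.94 in control and 2.83, 3.96 and 4.21 in MMP3. The control values lay close together, while the MMP3 value at 250K was 2.6-fold that at 50K. Bst2, tetherin, which holds budding viruses at the membrane, was ordered in both agents at -2.31, -1.72 and -1.13 in control and 0.82, 1.75 and 2.21 in MMP3 (0.55, SE 0.07). For 8 of 30 members the difference of the slope between agents had an unadjusted p under 0.05, against 11.9% of all genes, and 4 had one for the common slope. That count of 4 was 1 without MMP3 50K or without MMP3 250K and 6 without control 250K.

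Experiment B covered the same densities on separate arrays, where Ifit1 did not follow the pattern seen in A. In A, Ifit1 was between -2.98 and -2.91 on all control arrays and between 2.83 and 4.21 on all MMP3 arrays. In B it was high at 50K and 250K in both agents (3.71 and 4.26 in control, 4.53 and 5.15 in MMP3) and low at 25K and 100K in both (-2.93 and -2.93 in control, -2.83 and -2.97 in MMP3), and the array labelled MMP3 100K had an SD over genes of 1.29. Slopes of B, from 50K to 250K, follow the deposited labels. Whether labels of B arrays were exchanged cannot be told from these data, and every B slope and every value of A against B would change if they were. For the difference of the slope between A and B, 0 genes (0%) passed an adjusted p of 0.05 with limma (smallest adjusted p = 1.0) and 66 had an unadjusted p under 0.05 (0.559%), so nothing is called particular to A. Leaving out single arrays gave 34 (without control 50K or control 250K of A) to 386 (without MMP3 50K of B). The spread in this fit includes that of the B arrays, so the small count does not show that the slopes were alike. Of the 2900 genes at unadjusted p under 0.05 in A, 2494 had a slope of the same sign in B (86%), against 7957 of all 11812 genes (67.4%). Across genes the slopes correlated at r = 0.538. That likeness depends on the 50K arrays of B. Leaving out single arrays of B gave r from -0.15 to 0.62. The share of the same sign then ran from 48.3% to 89.4% among the 2900 genes and from 49.1% to 69.0% over all genes. Each of these was lowest without MMP3 50K of B. Without control 50K of B r was 0.297, and the shares were 70.9% and 59.1%.

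Some lists had mostly the same sign in B and others did not. Over all 11812 genes 5960 slopes were positive in B and 5852 negative. All 31 replication genes had a negative slope there, with a median of -0.28 beside -0.29 in A, and with any 1 array of B left out 26 to 31 did (median -0.47 to -0.10). The growth arrest list had 19 of 23 positive (median 0.12 beside 0.33, and -0.03 to 0.26 with 1 array of B left out), lysosomal genes 25 of 29 (0.11 beside 0.19, and -0.01 to 0.21), actin genes 23 of 27 negative (-0.07 beside -0.17) and NF-kappaB genes 16 of 18 negative (-0.13 beside -0.24). Mitosis genes were negative in all 29 (-0.26 beside -0.08). Protease genes had 10 of 19 positive (0.01 beside -0.18) and TGF-beta and BMP genes 14 of 25 positive (0.03 beside -0.11). For the actin, NF-kappaB, mitosis, protease and TGF-beta lists the dependence on single arrays of B was not computed. Id2 had a slope of -0.13 in B against -1.31 in A, a difference of -1.18 (SE 0.31) at unadjusted p under 0.05, and Id1 and Id3 had -0.04 and 0.13. Stat5a (0.10 in B), Notch3 (0.41), Krt6a (0.12) and the phosphofructokinase gene Pfkl (0.24) were the other list members at unadjusted p under 0.05 for this difference, and 0 passed after adjustment (limma). Krt15 (0.80), Ccn2 (-0.48), Serpinb2 (-0.75) and Pik3ip1 (0.35) had the same sign in B with a smaller slope.

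**Figure D5:**
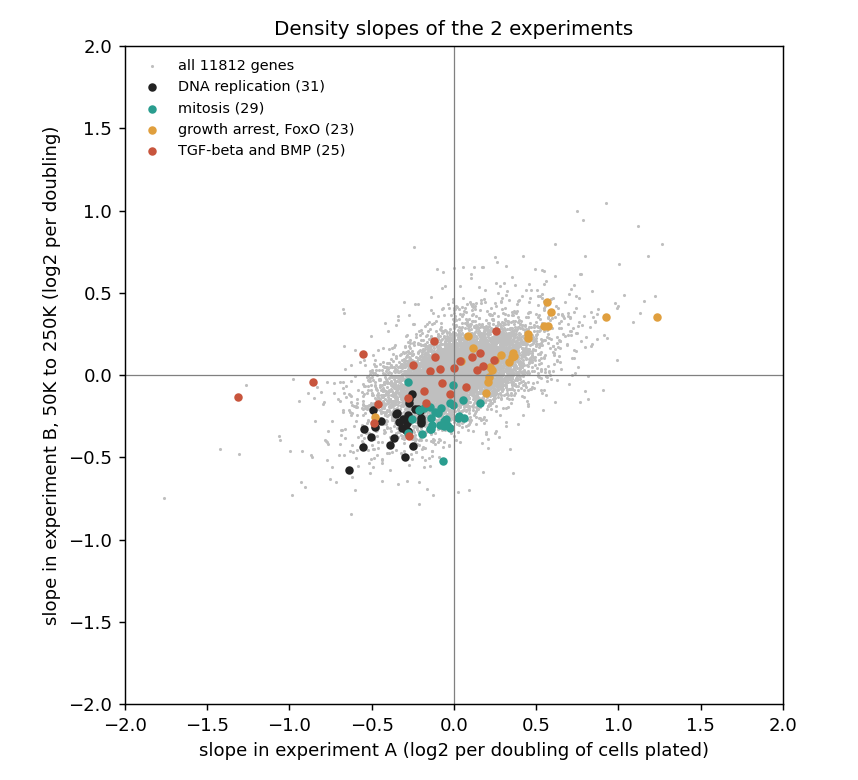
Each point is a gene, with its density slope (log2 per doubling of cells plated, 50K to 250K) in experiment A on the horizontal axis and in experiment B on the vertical axis; 4 gene lists are coloured. Replication genes (black) are below 0 on both axes, and Id1, Id2 and Id3 of the TGF-beta and BMP list lie far to the left near 0 on the vertical axis.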

How the data were processed

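RNA of each dish (200 ng) was hybridised to an Affymetrix mouse expression array, per the labels' protocols. The deposited values are relative log2 signals made with RMA (no version given), per the submitters' processing notes. The log base is not stated in the sources used here and is taken as 2, as RMA gives. Each of 45101 probe sets has a median of 0 over the 14 arrays, within 1e-06 (tested on the table), so levels of genes cannot be compared. Precision is limited by the number of arrays, and the spread between dishes behind each p-value may be technical.

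Control probe sets (64) were left out. Of the other 45037, 34945 had 1 gene symbol, 932 several and 9160 none, and 34741 symbols were updated by Entrez ID. For each of 18193 genes the most variable probe set (highest SD, all 14 arrays) was kept, and the 11812 genes with an SD of at least 0.049 (the 40th percentile) were tested. The slope on log2 cells plated was fitted with limma 3.58.1 in R 4.3.3 (lmFit, eBayes) with the agent as a block and 3 residual degrees of freedom, and p-values were adjusted by Benjamini-Hochberg over all genes tested. The difference between agents had 2 residual degrees of freedom, and the difference between experiments, on 12 arrays, 6. Differences of 250K minus 50K within an agent are 1 array against 1 and were not tested. Scripts were tested on simulated data.

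The named genes are the 15 with the smallest p in each direction, a fixed set of well-known genes, and list members with the largest slopes. Members, gene lists and these rules were chosen with earlier results of these data known. The counts at unadjusted p under 0.05, the ordering by density, the 2-fold rule, the choice of list members to name and the promoters shown were added after seeing the data. Other genes were named after their values were seen. Promoter sequences are RefSeq's (GRCm38.p6), and figures were drawn with matplotlib 3.10.9. Alternatives covered the probe set rule, the filter, normalization, the density scale and arrays left out.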

Additional observations from a re-analysis of the deposited data

How the results depend on the processing

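Of the results recomputed, the count at adjusted p under 0.05 (limma) was 0 for the slope, for the difference between agents and for the difference between experiments in every alternative run. The unadjusted counts of 1574 higher and 1326 lower genes were 421 and 448 without both arrays at 250K, 876 and 608 without both at 50K, 480 and 384 on 12 arrays of A and B with the experiment as replicate block, and 585 and 434 with the spread of 14 arrays. With 1 array of A left out they ranged from 766 to 1632 and from 628 to 1384, both lowest without control 50K. Gene lists with over 50% of members at unadjusted p under 0.05 in 1 direction numbered 4, and 2 with probe sets of a gene averaged, 2 without a filter, 2 after quantile normalization, 0 without both 250K arrays, 2 without both 50K arrays, 1 with the replicate block, 0 with 14 arrays and 1 to 3 with 1 array left out. The 1410 genes at unadjusted p under 0.05 for the agent difference ranged from 404 (without control 250K) to 1861, and the 66 for A against B from 34 to 386 (the highest without MMP3 50K of B), with 277 when 25K was included. The 111 and 58 genes 2-fold apart in both agents were 48 and 32 with the mean of probe sets. Slopes of some genes turned sign: after quantile normalization Cdh1 was 0.0020 and Hmgcs1 -0.014. Without both 250K arrays Mki67 was 0.069, Ccnd1 0.0092, Cdh1 0.050, Vim 0.11, Vegfa -0.0044 and Txnip -0.42. Without both 50K arrays Krt14 was 0.17 and Hmgcs1 -0.035, and with the replicate block Krt14 was 0.13 and Hmgcs1 -0.11. With 1 array of A left out the slope of Mki67 ranged from -0.13 (without control 250K) to 0.11 (without MMP3 250K), of Cdh1 from -0.056 to 0.00083, of Krt14 from -0.32 to 0.0069 and of Vegfa from -0.0036 to 0.066, the values at the reversed end of the last 3 being those without control 250K. Across the 6 shared groups the differences of A minus B correlated between groups at -0.67 to 0.65 (15 pairs, 8 above 0.1). The experiment letter was therefore not used for pairing in the main fits. It entered as a block in the alternative on 12 arrays of A and B, whose counts carry this limit. The cause of these shifts was not tested.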
